A study of Mus musculus with 8 samples.

Results

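The 47 genes described here are the numbered *Spata* (spermatogenesis associated) and *Tex* (testis expressed) genes that lie on autosomes, 26 *Spata* and 21 *Tex* genes on 16 chromosomes, out of 22253 autosomal genes and 23343 genes in all in the RNA-seq tables. Membership follows from the symbol and the chromosome and uses no measured value; X-linked genes of these names are outside it, and 2 further autosomal *Tex* genes are not analysed here. RNA was measured in pachytene spermatocytes (PS, cells in the long middle phase of meiotic prophase) and round spermatids (RS, the haploid cells that follow meiosis) of adult C57BL/6 mice that lacked both *Rnf8*, a ubiquitin ligase of the DNA damage response, and *Scml2*, a germline Polycomb protein (*Rnf8;Scml2*-dKO). Acetylation of histone H3 at lysine 27 (H3K27ac), a mark of active promoters and enhancers, was measured in PS and RS of wild-type adult mice of the same strain. Each stage and assay had 2 samples, 8 in all. Cells were separated from testis by sedimentation in BSA, so each sample is a purified fraction that can hold other testis cells. RNA and H3K27ac thus come from different genotypes, wild-type RNA was not analysed here, and every RNA difference below is between stages within the dKO.

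Spermatocytes transcribe many genes whose products are used only later, and after meiosis the haploid spermatid builds the acrosome, the flagellum with its mitochondrial sheath, and a compacted nucleus. Most *Spata* and *Tex* genes were named because their RNA was found in testis, not because their proteins are related, so the symbols join unrelated proteins. Some act before or during meiosis (*Tex14* at the intercellular bridges between germ cells, *Tex15* in transposon silencing and meiotic recombination, *Spata22* in recombination, *Tex19.2*, a paralog of a genome-defence gene). Others act in spermatids and sperm (*Spata16* in the acrosome, *Spata6* in the connecting piece of the tail, *Spata19* in the mitochondrial sheath, *Tex40*, now *Catsperz*, in the CatSper calcium channel). A further group works in many tissues (*Spata2* as an adaptor of the deubiquitinase CYLD, *Spata5* and *Tex10* in ribosome assembly, *Spata7* in the photoreceptor cilium, *Tex264* as a receptor for degradation of the endoplasmic reticulum). The genes are therefore described in 3 role groups, set from general knowledge: 4 with a meiotic or earlier role, 31 with expression strongest after meiosis, and 12 expressed broadly outside the testis.

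The RNA-seq samples held 9655405 to 12289694 reads on genes, and the H3K27ac samples 41095 to 74919 peaks, with a background of 0.72 to 1.46 fragments. Between replicates, 44.6% of genes in PS and 32.4% in RS differed by more than counting error, so no library was a copy of another. *Rnf8* was still counted in the dKO, with RPKM of 4.02 and 4.88 in PS and of 2.15 and 2.09 in RS, and *Scml2* had RPKM of 0.649 to 1.72. Without wild-type samples these values do not check the knockout. Summed RPKM of 8 spermatid markers was 1254 and 1460 in PS and 13965 and 14895 in RS, and 7 of the 8 rose. Summed RPKM of 8 spermatocyte markers was 667 and 650 in PS and 227 and 267 in RS, and 5 of the 8 fell. The 5 Leydig cell markers summed to 727 and 546 in PS and 68.0 and 42.4 in RS, and all 5 fell, whereas the 3 macrophage markers measured summed to 0.925 and 0.954 in PS and 10.7 and 8.86 in RS, and all 3 rose. Of 6 spermatogonial markers, 3 rose, with sums of 26.0 to 49.6. Of 6 Sertoli cell markers 1 rose, with sums of 2.25 to 5.43, and neither of 2 peritubular markers was called, with sums of 1.54 to 2.35. The erythroid genes *Hbb-b1* and *Hba-a1* were listed at 0 in all samples. The part of these other cells in the differences of *Spata* and *Tex* genes was not tested, and in bulk RNA fewer cells of a type and less RNA per cell cannot be told apart. The labels name replicates but not animals, so p-values measure the spread between these samples. An exact permutation test with 2 samples against 2 has a smallest two-sided p of 0.333, so tests were fitted across all genes.

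Most of the *Spata* and *Tex* genes had more RNA in RS than in PS. These genes took 0.572% and 0.605% of gene reads in PS (95% Wilson intervals 0.57% to 0.58% and 0.60% to 0.61%, counting error only) and 1.47% and 1.34% in RS (1.47% to 1.48% and 1.33% to 1.35%). Of the 46 with enough reads to test, 29 rose and 4 fell from PS to RS by edgeR's quasi-likelihood test (Benjamini-Hochberg adjusted p under 0.05 and at least 1.5-fold), and 13 were not called. Over all 14647 genes tested, 30.4% were called higher and 27.6% lower in RS (58.0% in either direction). The median log2 fold change was 2.40 for the 46 genes and 0.01 for all genes tested. Of the 29 rises, 25 were of at least 4-fold and 14 of at least 8-fold. RPKM values of RS lay wholly above those of PS for 34 of the 47 genes and wholly below for 11, against 40.9% and 42.7% of all genes tested. The gene not tested was *Spata5l1*, with 7 and 4 reads in PS and 9 and 11 in RS.

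**Figure D1:**
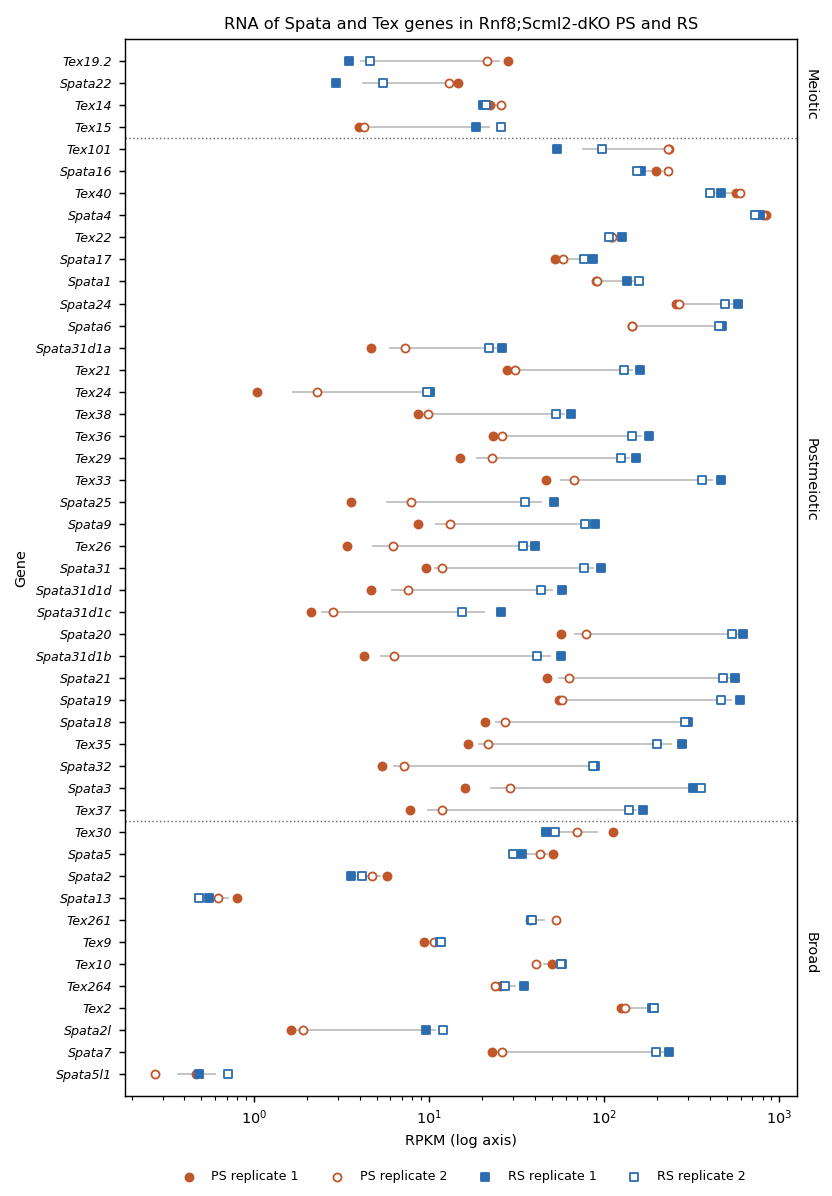
RPKM of the 47 genes (horizontal, log axis) in each of the 4 dKO samples, with circles for PS, squares for RS, filled symbols for replicate 1 and open symbols for replicate 2; grey lines join the stage means, and genes are ordered by log2 fold change within the 3 role groups. In the postmeiotic group the RS symbols lie to the right of the PS symbols for 26 of 31 genes, and the broad and meiotic groups hold both directions.

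The group named for expression after meiosis carried most of the rise. Of its 31 genes, 25 rose, 1 fell and 5 were not called, beside 30.4% higher and 27.6% lower of all genes tested. The median log2 fold change of the group was 2.91. Knowledge of where these genes are expressed placed them in the group, so its direction is not independent of that knowledge. *Tex37*, a testis gene of little known function, rose most. Its RPKM was 7.72 and 11.9 in PS and 166 and 138 in RS, 15.9-fold (log2 3.99 ± 0.23 SE, edgeR adjusted p = 3.05e-06). *Spata3* followed, with RPKM of 16.0 and 29.1 in PS and 321 and 355 in RS (log2 3.93 ± 0.27). *Spata32* went from 5.37 and 7.21 to 88.1 and 85.7 (log2 3.83 ± 0.19), though its span overlaps *1700023F06Rik*. Reads of overlapping genes cannot be told apart in these libraries, which do not mark strand. The spans of *Spata1*, *Spata17*, *Spata2*, *Spata2l*, *Tex10* and *Tex9* also overlap another gene. In *Tex37*, *Spata3* and *Spata32* the PS and RS samples did not overlap, which held for all 29 genes that rose. The calls rest on these same samples, so the lack of overlap is no separate support for them. *Tex35* had RPKM of 16.6 and 21.7 in PS and 278 and 201 in RS (log2 3.69 ± 0.22).

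Both genes of the group that act on mitochondria rose. *Spata18*, which encodes a regulator of mitochondrial quality control, had RPKM of 20.7 and 27.1 in PS and 301 and 288 in RS (12.7-fold, log2 3.66 ± 0.17, edgeR adjusted p = 2.09e-06). *Spata19*, needed for the mitochondrial sheath of the sperm tail, had 55.0 and 57.6 in PS and 597 and 463 in RS (9.69-fold, log2 3.28 ± 0.17). *Spata21* reached a similar level, from 47.2 and 62.8 to 554 and 475 (log2 3.26 ± 0.18), and *Spata20*, which encodes a thioredoxin-like protein, went from 56.6 and 78.5 to 616 and 539 (log2 3.13 ± 0.18). These 4 genes stood at an RPKM of 20.7 to 78.5 in PS and of 288 to 616 in RS. *Spata6*, required for the connecting piece that joins head and tail, was already high in PS, at 143 in both samples, and rose 3.33-fold to 472 and 453 (log2 1.74 ± 0.11). *Tex29* had RPKM of 14.9 and 22.7 in PS and 151 and 125 in RS (log2 2.91 ± 0.22).

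A further 7 genes of the group, *Spata9*, *Spata25*, *Tex21*, *Tex24*, *Tex26*, *Tex33* and *Tex36*, rose with log2 fold changes of 2.33 to 3.01. The most abundant of them was *Tex33*, with RPKM of 46.4 and 66.7 in PS and 466 and 359 in RS (log2 2.91 ± 0.21, edgeR adjusted p = 6.81e-06). The least abundant was *Tex24*, with 1.04 and 2.29 in PS and 10.1 and 9.66 in RS (log2 2.60 ± 0.33). *Tex36* had 23.1 and 25.9 in PS and 179 and 143 in RS (log2 2.76 ± 0.17). In all 7 both RS values lay above both PS values, as in every gene that rose. The smallest rise of the group was that of *Spata1*, from 89.8 and 90.7 to 134 and 157 (1.66-fold, log2 0.73 ± 0.13, called). *Spata17* had 52.0 and 57.8 in PS and 86.2 and 76.1 in RS (log2 0.51 ± 0.14), under the 1.5-fold threshold, and was called higher without PS replicate 2 (0.64) or RS replicate 2 (0.70).

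A few genes of the postmeiotic group were abundant in both stages. *Spata4* had the highest mean RPKM of all 47 genes in both stages, 842 and 801 in PS and 775 and 724 in RS, a log2 fold change of -0.09 ± 0.11 that was not called (edgeR adjusted p = 0.483). *Tex40*, a CatSper channel subunit, had RPKM of 562 and 596 in PS and 465 and 401 in RS, a log2 fold change of -0.38 ± 0.13 under the 1.5-fold threshold. *Spata16*, required for the acrosome, had 197 and 232 in PS and 162 and 153 in RS (-0.41 ± 0.13, also under the threshold). In both genes the RS values lay below the PS values without overlap. *Tex22* had 109 and 111 in PS and 126 and 106 in RS, where the stages overlapped. *Spata24* was high in PS and rose 2.11-fold, from 255 and 268 to 582 and 490 (log2 1.08 ± 0.13, adjusted p = 1.46e-04). *Tex101*, a germ cell surface protein needed for processing of the sperm protein ADAM3, was the single gene of the group that fell, from 235 and 231 to 53.5 and 96.8 (log2 -1.60 ± 0.24, 3.02-fold lower, adjusted p = 3.99e-04). Its RS samples differed from each other more than its PS samples, and both lay below them.

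The 5 members of a paralogous family, *Spata31* and *Spata31d1a* to *Spata31d1d*, lie on chromosome 13 and rose together. *Spata31*, which encodes a sperm head protein, had RPKM of 9.55 and 11.9 in PS and 95.2 and 76.1 in RS (log2 3.04 ± 0.18, edgeR adjusted p = 3.34e-06). *Spata31d1b* went from 4.26 and 6.31 to 56.6 and 41.1 (log2 3.25 ± 0.24), and *Spata31d1d* from 4.68 and 7.55 to 57.5 and 43.6 (log2 3.09 ± 0.25). *Spata31d1c* went from 2.10 and 2.81 to 25.6 and 15.4 (log2 3.10 ± 0.28), and *Spata31d1a*, with the smallest rise of the family, from 4.62 and 7.28 to 26.2 and 22.0 (log2 2.05 ± 0.23). PS and RS did not overlap in any of them, as in every gene that rose. Only uniquely aligned reads were counted, so levels of such close copies are uncertain, and how reads were split between them was not tested. The promoters of *Spata31d1a* and *Spata31d1b*, which face away from each other, are shown because they are near copies: 276 of 316 aligned columns were identical (87.3%), whereas the other pairs of the family had 50.0% to 64.0%. Both are 300 bases from RefSeq (GRCm38), from 250 before to 50 after the start, 5′ to 3′ on the gene's strand, chr13:59706148-59706447 on the minus strand and chr13:59712034-59712333 on the plus strand. Capitals mark CACGTG, the E-box, which begins 200 and 216 bases before the starts.
Spata31d1a: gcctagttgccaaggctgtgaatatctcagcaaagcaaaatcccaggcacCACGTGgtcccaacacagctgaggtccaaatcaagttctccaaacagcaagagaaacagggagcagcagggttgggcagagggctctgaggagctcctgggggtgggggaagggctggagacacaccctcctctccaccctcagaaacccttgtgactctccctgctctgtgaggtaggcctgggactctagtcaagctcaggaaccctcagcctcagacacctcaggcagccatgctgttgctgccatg
Spata31d1b: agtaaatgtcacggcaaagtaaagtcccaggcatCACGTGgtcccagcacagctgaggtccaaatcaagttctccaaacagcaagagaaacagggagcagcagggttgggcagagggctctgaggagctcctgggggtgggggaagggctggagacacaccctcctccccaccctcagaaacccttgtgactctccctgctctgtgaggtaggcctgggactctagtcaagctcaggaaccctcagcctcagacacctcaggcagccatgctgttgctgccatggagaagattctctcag

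The genes with a meiotic or earlier role did not move one way. Of the 4, 2 fell, 1 rose and 1 was not called, beside 27.6% lower and 30.4% higher of all genes tested. *Tex19.2* fell most of all 47 genes, from RPKM of 28.3 and 21.5 in PS to 3.49 and 4.61 in RS, 5.99-fold lower (log2 -2.58 ± 0.21, edgeR adjusted p = 1.23e-05). *Spata22*, the partner of *Meiob* on single-stranded DNA in recombination, fell from 14.6 and 12.9 to 2.92 and 5.46 (log2 -1.69 ± 0.29, adjusted p = 9.17e-04). *Tex15*, in contrast to both, rose 5.53-fold from 3.97 and 4.22 to 18.4 and 25.7 (log2 2.47 ± 0.18, adjusted p = 7.13e-06). *Tex14*, needed for stable intercellular bridges, had 22.2 and 25.7 in PS and 20.2 and 21.1 in RS (log2 -0.18 ± 0.14, adjusted p = 0.293). The promoters of the genes with the largest fall and the largest rise are shown side by side, because each holds 2 copies of the MYB core CAGTTG (in capitals, on either strand). *Tex19.2* is chr11:121118628-121118927, minus strand, and *Tex37* is chr6:70918873-70919172, minus strand, both from RefSeq in GRCm38. The first copy begins 23 bases after the start in *Tex19.2* and 169 bases before it in *Tex37*.
Tex19.2: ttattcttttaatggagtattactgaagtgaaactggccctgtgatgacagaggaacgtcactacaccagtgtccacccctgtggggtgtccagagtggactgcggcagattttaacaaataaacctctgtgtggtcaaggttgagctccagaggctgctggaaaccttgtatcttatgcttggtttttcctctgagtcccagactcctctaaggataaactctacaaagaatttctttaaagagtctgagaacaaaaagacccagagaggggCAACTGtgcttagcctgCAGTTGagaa
Tex37: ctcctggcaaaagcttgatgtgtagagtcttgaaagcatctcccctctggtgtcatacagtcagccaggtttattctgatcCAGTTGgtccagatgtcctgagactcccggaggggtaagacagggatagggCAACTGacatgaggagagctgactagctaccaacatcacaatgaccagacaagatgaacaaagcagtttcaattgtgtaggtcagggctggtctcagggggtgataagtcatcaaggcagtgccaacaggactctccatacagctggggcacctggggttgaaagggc

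Of the 12 broadly expressed genes, 3 rose, 1 fell, 7 were not called and *Spata5l1* was not tested. Over all genes tested, 30.4% were called higher and 27.6% lower, so the rises of this group were close to that share. *Spata7* rose most, from RPKM of 22.9 and 26.1 in PS to 235 and 198 in RS (9.07-fold, log2 3.18 ± 0.15, edgeR adjusted p = 2.11e-06). *Spata2l*, a relative of *Spata2*, rose from 1.63 and 1.90 to 9.63 and 12.0 (log2 2.65 ± 0.22), though it overlaps *4933417D19Rik*. *Tex2*, which encodes a lipid transfer protein of the endoplasmic reticulum, rose 1.53-fold from 124 and 131 to 188 and 191 (log2 0.61 ± 0.11, adjusted p = 0.00119). The call of *Tex2* was lost without PS replicate 1 (log2 0.53) and without TMM or in limma on RPKM (0.57 in both). The gene that fell was *Tex30*, from 112 and 70.0 to 46.2 and 52.5 (log2 -0.84 ± 0.20, adjusted p = 0.00601), a call lost without PS replicate 1 (-0.51) or RS replicate 1 (-0.66). The other named genes of this group were not called. *Spata2* had RPKM of 5.75 and 4.73 in PS and 3.56 and 4.14 in RS (log2 -0.40 ± 0.19). *Spata5* had 51.1 and 42.7 in PS and 33.8 and 30.0 in RS (-0.51 ± 0.14), and *Tex10* had 50.2 and 40.5 in PS and 57.3 and 56.4 in RS (0.37 ± 0.13). These differences were under 1.5-fold although the stages did not overlap. *Tex264* had 25.4 and 23.7 in PS and 34.7 and 26.9 in RS (0.37 ± 0.17), and *Tex261* had 37.4 and 52.9 in PS and 38.3 and 38.5 in RS (-0.20 ± 0.19). *Spata5* was called lower without PS replicate 2 (-0.59) and *Tex264* higher without RS replicate 2 (0.64).

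*Spata7* and *Spata6* were the 2 genes, of 41 with a promoter window, that held the relaxed cAMP response element TGACGTNA (N is any base, either strand), the site of the spermatid activator CREM, and their promoters are shown for that reason with the match in capitals. *Spata7* is chr12:98627892-98628191, plus strand, where the full element TGACGTCA begins 7 bases before the start of the RefSeq window and 49 bases before the deposited start. *Spata6* is chr4:111719760-111720059, plus strand, where the match begins 134 bases before the start and lies on the other strand. Both windows are RefSeq sequence in GRCm38.
Spata7: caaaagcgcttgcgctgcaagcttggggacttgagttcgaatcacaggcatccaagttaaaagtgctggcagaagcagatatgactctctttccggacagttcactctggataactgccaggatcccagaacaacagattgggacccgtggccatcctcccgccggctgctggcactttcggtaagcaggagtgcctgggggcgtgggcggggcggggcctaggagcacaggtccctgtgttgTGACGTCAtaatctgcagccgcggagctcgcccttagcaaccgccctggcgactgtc
Spata6: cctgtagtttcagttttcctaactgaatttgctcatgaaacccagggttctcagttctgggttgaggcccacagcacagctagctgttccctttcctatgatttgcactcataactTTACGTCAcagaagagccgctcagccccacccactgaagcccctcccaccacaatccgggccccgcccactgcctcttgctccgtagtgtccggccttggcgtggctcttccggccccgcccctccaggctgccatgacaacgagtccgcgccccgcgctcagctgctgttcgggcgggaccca

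The 6 motifs chosen for study were counted on both strands in the 41 RefSeq promoter windows that lay within 100 bp of the deposited start, beside 31396 autosomal windows of the same length. TGACGTCA was in 2.44% of the gene windows and 1.83% of all windows, and TGACGTNA, which includes it, in 4.88% and 2.97%. CACGTG was in 12.2% (*Spata16*, *Spata31d1a*, *Spata31d1b*, *Tex10* and *Tex36*) and 7.14%. GTTGCCA, part of the RFX site, was in 7.32% (*Spata31d1a*, *Spata4* and *Tex33*) and 4.41%. CAGTTG was in 9.76% (*Tex14*, *Tex19.2*, *Tex37* and *Tex38*) and 13.4%, and TATAAA in 4.88% (*Spata4* and *Tex10*) and 13.6%. Each motif was thus in 1 to 5 of the 41 windows, and no list of motifs was tested. Median GC content was 52.7% over 28 windows of the postmeiotic group, 65.7% over 10 of the broad group and 53.0% over all windows. A match is a description of the letters in the window and not of a bound site.

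Of 19 genes chosen as partners of *Spata* and *Tex* genes, 3 rose, 5 fell and 11 were not called, beside 30.4% and 27.6% of all genes tested. Among the 11, *Dpy19l2* and *Pick1* were chosen for a sperm defect like that of *Spata16*. *Ppp3r2* and *Ppp3cc*, also not called, were chosen for *Spata33*, which is not among the genes described. Agreement between a gene and its partner was not tested. *Zdhhc19*, the palmitoyltransferase partner of *Tex38*, rose from RPKM of 6.16 and 8.87 in PS to 57.2 and 54.4 in RS (log2 2.93 ± 0.21, edgeR adjusted p = 6.03e-06), and *Tex38* rose from 8.58 and 9.90 to 64.6 and 52.9 (log2 2.71 ± 0.20). *Catsper1*, the pore subunit of the channel of *Tex40*, rose from 7.28 and 11.4 to 67.3 and 66.9 (log2 2.88 ± 0.22). The auxiliary subunit *Catsperd* fell from 67.6 and 99.5 to 55.3 and 50.1 (log2 -0.63 ± 0.19). Around *Tex14*, *Cep55* fell (log2 -1.14 ± 0.14) and *Kif23* rose (log2 0.94 ± 0.14). Of the partners of *Tex10*, *Wdr18* (log2 -0.83 ± 0.14) and *Senp3* (log2 -0.74 ± 0.15) fell, and *Pelp1* was not called (log2 0.24 ± 0.14). For *Tex101*, *Ly6k* fell (log2 -0.88 ± 0.13). *Adam3*, also chosen for *Tex101*, had RPKM of 348 and 462 in PS and 600 and 573 in RS (log2 0.57 ± 0.15, not called). *Meiob*, the partner of *Spata22*, was not called (log2 0.13 ± 0.25, edgeR adjusted p = 0.672).

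In wild-type cells, promoters of nearly all these genes carried H3K27ac in both stages, including those whose RNA rose. A peak within 2 kb of a deposited start site was called in both replicates of both stages for 44 of the 47 genes. It was called in RS only for 2 (*Spata31d1a* and *Spata31d1c*), in PS only for 0 and in neither stage for *Tex15*. Over all 22160 autosomal genes with a start site, 49.8% were in the first class, 1.95% in the second, 6.18% in the third and 42.1% in the fourth. The height of the mark was compared as log2 of 1 plus the highest fold enrichment (the deposited pileup of fragments over the background of the sample) within 2 kb. By limma, 17 of the 46 genes tested were higher in RS, 7 were lower and 22 were not called (adjusted p under 0.05 and at least 1.5-fold), against 4.58% higher and 15.1% lower (19.6% either way) of all 13116 genes tested. The median of all genes tested was -0.42 on this log2 scale and that of the *Spata* and *Tex* genes 0.27. With samples centred on their medians, 25 genes were higher and 6 lower, against 14.7% and 10.9% of all genes, and the median was 0.70. The genes that gained a call by centring were *Spata18*, *Spata20*, *Spata31d1a*, *Spata31d1b*, *Spata31d1c*, *Spata6*, *Tex26* and *Tex9*, and *Spata5* lost one. Fold enrichment in RS lay wholly above PS for 24 genes and wholly below for 16, against 14.7% and 57.9% of all genes tested. For 7 genes (*Spata1*, *Spata17*, *Spata2*, *Spata2l*, *Spata31d1d*, *Spata5* and *Tex14*) another gene starts within 2 kb, so the peak can belong to either; without them 15 of 39 genes were higher and 6 lower. No gene of all 13116 was called without PS replicate 1, PS replicate 2 or RS replicate 2 (limma), although 2558, 2173 and 4860 of them had an unadjusted p under 0.05. Without RS replicate 1, 15 of the 46 genes were higher and 12 lower.

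**Figure D2:**
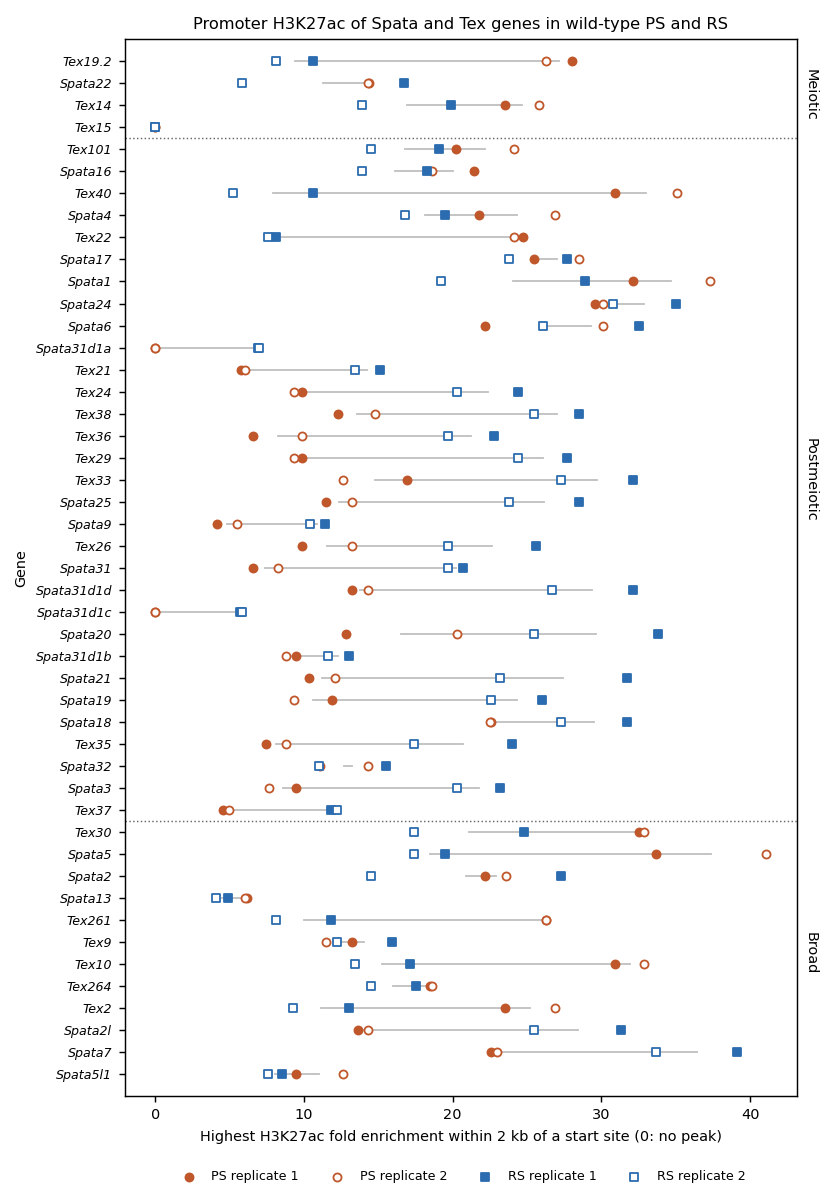
Highest H3K27ac fold enrichment within 2 kb of a start site (horizontal, linear axis, 0 where no peak was called) for the 47 genes in the 4 wild-type samples, in the order of the plot of RPKM by sample, with circles for PS, squares for RS, filled symbols for replicate 1 and open symbols for replicate 2; grey lines join the stage means. RS symbols lie above both PS symbols for 24 genes, and *Tex40* has the widest gap in the other direction, from 30.9 and 35.1 to 10.6 and 5.22.

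The largest differences upward that were called were of *Tex29* and *Spata31*. Fold enrichment at *Tex29* was 9.88 and 9.32 in PS and 27.7 and 24.4 in RS (log2 difference 1.35 ± 0.18 SE, limma adjusted p = 0.0233), and at *Spata31* 6.58 and 8.22 in PS and 20.7 and 19.7 in RS (1.34 ± 0.19, adjusted p = 0.0233). Both promoters were thus marked in PS, below their level in RS. *Tex37* had 4.53 and 4.93 in PS and 11.8 and 12.2 in RS (1.18 ± 0.18), *Spata3* had 9.47 and 7.67 in PS and 23.2 and 20.3 in RS (1.25 ± 0.20), and *Spata19* had 11.9 and 9.32 in PS and 26.0 and 22.6 in RS (1.13 ± 0.20). *Tex21* (1.14 ± 0.18), *Tex24* (1.14 ± 0.18), *Spata9* (1.05 ± 0.21), *Spata25* (1.02 ± 0.19), *Tex33* (0.97 ± 0.21) and *Tex36* (1.29 ± 0.24) were called higher as well. *Tex26*, with 9.88 and 13.2 in PS and 25.6 and 19.7 in RS, just missed the threshold (0.92 ± 0.23, adjusted p = 0.0508). *Spata7*, whose window is shown above, had 22.6 and 23.0 in PS and 39.1 and 33.7 in RS (0.65 ± 0.15, adjusted p = 0.0427). These calls were lost without PS replicate 1 (adjusted p = 0.240 for *Tex29*), PS replicate 2 (0.284) or RS replicate 2 (0.0682), and that of *Spata7* also without RS replicate 1 (0.54, under 1.5-fold), as were those of *Tex33* (adjusted p = 0.0607) and *Tex36* (0.0522). With only peaks of -log10 q of at least 5, *Spata9* had a difference of 2.23 that was not called (adjusted p = 0.149). *Spata31d1a* had no peak in PS and 6.92 and 6.97 in RS, and *Spata31d1c* none in PS and 5.70 and 5.81 in RS. Their differences of 2.99 ± 0.96 and 2.75 ± 1.07 are the largest, depend on the value taken where no peak was called, and missed the threshold (adjusted p = 0.0815 and 0.118). With the background in place of 0, the difference of *Spata31d1a* was 1.99 and called. *Spata31d1b*, whose promoter is nearly identical to that of *Spata31d1a*, had 9.47 and 8.77 in PS and 13.0 and 11.6 in RS (0.39 ± 0.18, adjusted p = 0.157). It was 0.83 and called with median centring (adjusted p = 0.0108), and 2.04 and not called within 1 kb of the start (adjusted p = 0.212).

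Of the 7 genes with a lower mark in RS, 5 had RNA that was not called. *Tex40* had the largest fall, from 30.9 and 35.1 in PS to 10.6 and 5.22 in RS (-2.00 ± 0.33, limma adjusted p = 0.0255), while its RNA had an RPKM of 401 to 596 in the dKO. With only peaks of -log10 q of at least 5, the difference of *Tex40* was -3.32 and not called (adjusted p = 0.152). *Tex22* went from 24.7 and 24.1 to 8.14 and 7.55 (-1.52 ± 0.17, adjusted p = 0.0233), and *Tex261* from 26.3 in both samples to 11.8 and 8.13 (-1.34 ± 0.22). *Tex19.2*, whose RNA fell, went from 28.0 and 26.3 to 10.6 and 8.13 (-1.45 ± 0.20, adjusted p = 0.0233). *Tex10* (-1.03 ± 0.19) and *Spata5* (-0.98 ± 0.17) also fell. The mark at *Spata4* was 21.8 and 26.9 in PS and 19.5 and 16.8 in RS (-0.40 ± 0.19, not called), close to the median of all genes. All of these falls lost their call without PS replicate 1, PS replicate 2 or RS replicate 2 (adjusted p = 0.240, 0.284 and 0.0682 for *Tex22*), and that of *Spata5* also with median centring (-0.55).

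Where both were called, the direction of RNA in the dKO and of the promoter mark in wild-type cells was the same for 18 genes and opposite for 1, beside 89.9% in the same direction among 1548 autosomal genes called in both. Of the 29 genes whose RNA rose, 26 had a promoter peak in both PS replicates, 24 had a higher fold enrichment in both RS samples than in both PS samples, and 17 were called higher. Of all 4141 autosomal genes with a start site whose RNA rose, 67.0%, 31.0% and 12.6% were in these classes. *Tex2* was the exception: its RNA rose (log2 0.61), and the mark at its promoter fell from 23.5 and 26.9 to 13.0 and 9.29 (-1.12 ± 0.22, limma adjusted p = 0.0328, lost without PS replicate 1, PS replicate 2 or RS replicate 2). The RNA call of *Tex2* was lost without PS replicate 1, without TMM and in limma on RPKM. At a further annotated start of *Tex2* (GENCODE M21), 33817 bp into the gene, the mark was 14.8 and 12.1 in PS and 29.3 and 21.5 in RS. *Spata18* and *Spata32*, with RNA 12.7- and 14.2-fold higher in RS, had differences in the mark that were not called. *Spata18* had 22.6 and 22.5 in PS and 31.7 and 27.3 in RS (0.37 ± 0.16; with median centring 0.80 and called higher, adjusted p = 0.00353), and *Spata32* had 11.1 and 14.3 in PS and 15.5 and 11.0 in RS (0.05 ± 0.24), where the stages overlapped. Across 45 genes tested for both, the correlation of the log2 differences was 0.77 (Pearson) and 0.74 (Spearman), beside 0.45 and 0.38 across 11960 autosomal genes. Genes are not replicates, and all points share the same 8 libraries, so no p is given. The correlation of levels was 0.58 (Spearman 0.64) in PS and 0.46 (Spearman 0.44) in RS.

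**Figure D3:**
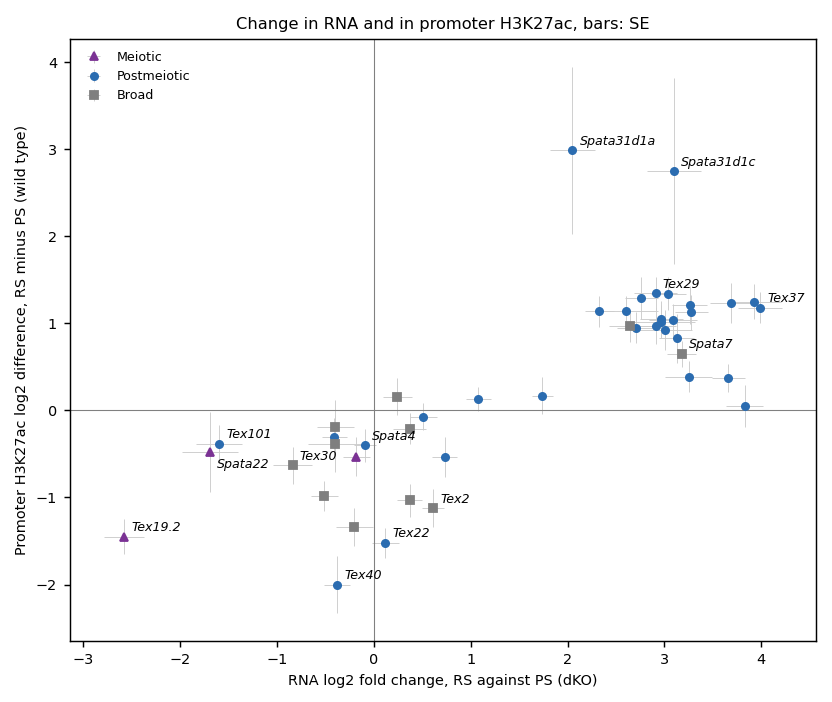
Log2 fold change of RNA, RS against PS of the dKO (horizontal), against the log2 difference in promoter H3K27ac, RS minus PS of wild type (vertical), for the 45 genes tested for both, with bars for SE and symbols for the 3 role groups. Most genes with large RNA rises sit near a difference of 1 in the mark, *Tex2* sits at 0.61 and -1.12, and *Tex40* and *Tex22* lie low with RNA near 0.

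*Tex15* rose in RNA with no peak within 2 kb of its deposited start in any sample. That start could not be checked against RefSeq, because no RefSeq promoter window was found for *Tex15*. Peaks assigned to the gene lay farther upstream, and whether one of them lies at another start of *Tex15* was not tested. The strongest, chr8:33535085-33540831 (mm10), an intergenic region centred 32586 bp before the start, was enriched 5.35- and 7.13-fold in PS and 21.2- and 18.0-fold in RS. A region centred 20075 bp before the start had 3.70 and 5.48 in PS and 15.1 and 11.0 in RS, and one 71396 bp before it 3.29 and 6.03 in PS and 8.14 and 11.0 in RS. All 3 were higher in both RS samples than in both PS samples. Another, 53427 bp before the start, had 9.47 and 7.67 in PS and 12.2 and 5.81 in RS, where the stages overlapped. *Tex101*, whose RNA fell, had upstream regions that were lower in RS. Its promoter was marked in both stages, at 20.2 and 24.1 in PS and 19.1 and 14.5 in RS (-0.38 ± 0.21, limma adjusted p = 0.218). A region 15672 bp upstream (chr7:24687316-24688129, mm10) had 18.9 and 15.9 in PS and 5.29 in RS replicate 1, with no peak in RS replicate 2. A nearer region, 4852 bp upstream, had 12.3 and 11.0 in PS and no peak in RS. Single regions were not tested, and assignment of a region to the nearest gene is the authors' annotation.

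Away from start sites, peaks assigned to these genes formed 247 merged regions over the 4 samples. A peak was called in both replicates of both stages in 27 regions, of PS only in 16, of RS only in 34 and of neither in 170. The number of peaks called differs between samples (RS replicate 1 had the most, 213 of them away from the starts against 68 to 105 in the others), and what part this has in the counts was not tested. Among regions of genes whose RNA rose, 10 were in both stages, 4 in PS only and 16 in RS only, among those of genes whose RNA was not called or not tested, 17 were in both stages, 8 in PS only and 18 in RS only, and among those of the 4 genes that fell, 4 were in PS only and none in both stages or in RS only. The share over the regions of all genes was not computed, so nothing is read from these splits. *Spata6* held an intronic region 57440 bp into the gene with 4.12 and 4.93 in PS and 17.1 and 11.0 in RS, while its promoter had 22.2 and 30.1 in PS and 32.5 and 26.1 in RS (0.17 ± 0.21, not called). *Tex2* held one 33498 bp into the gene with 14.8 and 12.1 in PS and 29.3 and 21.5 in RS, the opposite direction to its promoter. *Tex30*, whose RNA fell, had a region 20812 bp beyond its start with 15.2 and 21.4 in PS and 5.29 and no peak in RS. *Spata16* had an intergenic region 120510 bp upstream with 18.1 and 16.4 in PS and no peak in RS, and 4 regions within the gene in RS only, such as one 67495 bp into it with 6.92 and 5.22. Its own promoter was marked at 21.4 and 18.6 in PS and 18.3 and 13.9 in RS. *Tex14* held 14 regions, of which 5 were higher in both RS samples than in both PS samples, 3 lower and 6 overlapping. One 42775 bp into the gene had 18.1 and 15.3 in PS and 11.0 and 8.71 in RS, and one 84804 bp into it had 4.53 and 4.93 in PS and 8.54 and 8.13 in RS. The promoter of *Tex14*, shared with the start of a neighbouring gene, had 23.5 and 25.8 in PS and 19.9 and 13.9 in RS (-0.53 ± 0.22, not called).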

How the data were processed

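Samples were grouped by their labels into wild-type PS and RS for H3K27ac (ChIPmentation) and *Rnf8;Scml2*-dKO PS and RS for RNA, 2 each. For H3K27ac, Bowtie (1.1.1 in the processing notes, mm10) and MACS2 (2.1.0.20140616) were run by the authors on each sample. The deposited lists give pileup signal, fold enrichment, a ratio to one background constant per sample, and -log10 p and q values; read totals are unknown. For RNA, the authors used STAR (2.4.2a) and kept unique alignments. The deposited read counts (RefSeq, split between isoforms) are not normalized, and the deposited RPKM are scaled by length and library size.

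Rows were summed per gene. Where 2 or more samples had 10 or more reads, a gene was tested with edgeR 4.0.16 (quasi-likelihood, TMM). H3K27ac was tested with limma 3.58.1 on log2 (fold enrichment + 1) within 2 kb of a start, for genes with a peak in at least 2 samples. Both were run on simulated data, where the planted H3K27ac differences were larger than most of those called for these genes. DESeq2 1.42.0, limma on log2 (RPKM + 1), other scalings, windows of 1 and 5 kb, peak thresholds, the replicate block and leaving out each sample were alternatives. R 4.3.3 and Python 3.11.15 were used.

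The genes and lists were chosen with earlier results of these data known. Named genes were the 8 largest rises, the falls (up to 8, of which there were 4), the 5 highest levels, the 4 largest H3K27ac differences each way and a list of genes with known roles; others named were chosen after their values were seen.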

Additional observations from a re-analysis of the deposited data

How the results depend on the processing

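With each sample left out in turn (the lone sample then assumed to vary like the other stage), RNA gave 28 to 31 genes higher and 3 to 5 lower, and H3K27ac gave 0 to 15 higher and 0 to 12 lower; with 0 calls over all genes, limma still gave 2173 to 4860 genes an unadjusted p under 0.05. In the same fits the log2 RNA difference of *Tex261* ranged from -0.46 to 0.13 and that of *Spata4* from -0.10 to 0.06, and the H3K27ac difference ranged from -0.18 to 0.28 for *Spata32*, -0.05 to 0.38 for *Spata6*, -0.62 to 0.24 for *Spata2* and -1.17 to 0.21 for *Spata22*; none of these was called in the fit of all samples, and the cause was not tested. Median centring moves the median of all H3K27ac differences from -0.42 to 0.01, and by that shift *Spata16* (0.13), *Spata2* (0.24), *Spata4* (0.03), *Tex101* (0.05), *Tex264* (0.22), *Spata17* (0.36), *Spata13* (0.05) and *Spata5l1* (0.03) changed sign. With peaks of -log10 q of at least 5, 2 genes had a promoter peak in PS only and 4 in RS only. A 5 kb window left 1 gene in RS only, as did adding GENCODE M21 start sites, a choice made after the values were seen. DESeq2, no TMM, RPKM in limma and no filter on low counts gave 28 to 29 genes higher and 4 lower. The replicate number as a block gave 29 and 4 for RNA, where it changed no call, and 20 and 7 for H3K27ac, where *Spata20*, *Spata31d1a*, *Spata31d1c* and *Tex26* gained a call and *Spata7* lost one. Same-numbered samples deviated with a correlation of 0.22 (RNA, 14647 genes) and 0.00 (H3K27ac, 11040 genes). The labels tie no number to an animal, so the numbers were not taken as pairs. By the paper's methods, PS and RS of the dKO could be purified from a single male, so same-numbered RNA samples may share an animal. Depth limits low genes: *Spata5l1* could not be tested.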

Other observations

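Start sites of GENCODE M21 (GRCm38), examined after the values were seen, gave 46 of the genes a match, and 7 of them had a further coding start over 2 kb from the deposited one. At such a start of *Tex2*, 33817 bp into the gene, fold enrichment was 14.8 and 12.1 in PS and 29.3 and 21.5 in RS. *Spata17*, whose deposited promoter had 25.5 and 28.5 in PS and 27.7 and 23.8 in RS, had 6.17 and 7.67 in PS and 19.1 and 13.9 in RS at a start 72349 bp into the gene. *Spata6* had a later RefSeq start 57587 bp into the gene, with 4.12 and 4.93 in PS and 17.1 and 11.0 in RS. At all 3 internal starts both RS samples lay above both PS samples. *Spata31d1a* had a start 4133 bp from the deposited one, within the peak of *Spata31d1b*, with 9.47 and 8.77 in PS and 13.0 and 11.6 in RS, so its class of RS only holds for the deposited start. The further starts of *Spata1* had no peak in any sample, and those of *Spata13* and *Spata18* had one only in RS replicate 1 (2.85 and 3.66).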
